A study of Homo sapiens with 4 samples.

Results

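The 9 genes described here encode core proteins of the spindle assembly checkpoint and its kinetochore platform: TTK, BUB1, BUB1B, BUB3, MAD1L1, MAD2L1, KNL1, NDC80 and ZWINT. They are 9 of the 25798 gene IDs in the deposited tables. They were chosen for their role under microtubule poisons, with earlier results of these data known. TTK and BUB1 were also selected on their log2 fold changes, which went opposite ways in the comparison below. The values of TTK and BUB1 are therefore descriptions with no test. RNA was sequenced from SW1990, an established human pancreatic adenocarcinoma line with a wild-type genotype label, in 2 libraries of cells given 100 nM erianin for 48 h and 2 libraries of cells given DMSO, its solvent, for 48 h. Erianin, a bibenzyl from Dendrobium orchids, is a tubulin ligand that disturbs microtubules. Whether the replicates were separate cultures is not stated, so a p-value here reflects library-to-library spread that may be technical.

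The spindle checkpoint delays anaphase while any kinetochore lacks microtubules, and it is the pathway that holds cells in mitosis when tubulin is poisoned. TTK (also called MPS1) phosphorylates repeats in KNL1, BUB3 bound to BUB1 docks on those repeats, and BUB1 helps to bring MAD1L1 with MAD2L1 to the kinetochore. MAD2L1, BUB1B and BUB3 then bind CDC20 in the mitotic checkpoint complex, which blocks the anaphase-promoting complex. Many of these transcripts are known to peak late in the cell cycle, so in bulk RNA a change in the share of cells near mitosis and a change in RNA per cell cannot be told apart.

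The tables' totals were 63336545 and 59923935 counts in the erianin libraries and 63254725 and 60798427 in the DMSO libraries. The keratin genes KRT7, KRT8, KRT18 and KRT19 were at 1380.2 CPM (counts scaled to library size) or more in every library, and all 8 ductal epithelial markers examined were at 1 CPM or more in every library. Of 7 fibroblast markers, summed levels were 11.2 and 14.3 CPM in erianin and 38.6 and 13.4 CPM in DMSO. By this sum DMSO replicate 1 stood apart, with COL3A1 at 8.83 and DCN at 6.03 CPM, and COL1A1, COL1A2 and LUM were also highest there. PDGFRB was not, at 4.63 and 5.42 CPM in erianin and 5.23 and 4.57 CPM in DMSO, nor was THY1, at 0.0641 CPM or less in every library. The part of this uneven sum in the results was not tested, and values without DMSO replicate 1 are given below. Of the defining markers of other types, PTPRC was at 0 in both erianin libraries and at 0.136 and 0 CPM in DMSO, while CD68, of the same blood list, was at 204 and 244 CPM in erianin and 193 and 198 CPM in DMSO. PECAM1 was at 1.30 CPM or less in every library, and CD3E, CDH5, INS and GCG were not in the tables used here. Erianin replicate 2 also stood apart, with fold changes that followed the GC content of genes more steeply than those of erianin replicate 1, as given below.

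TTK was the checkpoint gene with the highest fold change of the 9, and BUB1 the one with the lowest. TTK (ENSG00000112742, GRCh38 chromosome 6, 80003887 to 80042527, plus strand) had 12.6 and 18.9 CPM in erianin replicates 1 and 2, against 11.6 and 10.3 CPM in DMSO replicates 1 and 2. Both erianin libraries lay above both DMSO libraries, but erianin replicate 1 did so by little and erianin replicate 2 set the size of the difference. Its log2 fold change of erianin over DMSO was 0.53 with a standard error of 0.22, and relative to the DMSO mean the libraries of erianin replicates 1 and 2 were at 0.20 and 0.79.

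BUB1 (ENSG00000169679, chromosome 2, 110637698 to 110678114, minus strand), the kinase that also marks centromeric histone H2A, had 32.9 and 24.4 CPM in erianin, against 45.3 and 38.4 CPM in DMSO. Both erianin libraries lay below both DMSO libraries, and again erianin replicate 2 was the farther one. The log2 fold change was -0.55 ± 0.17 (SE), or 0.685-fold, with -0.35 for erianin replicate 1 and -0.78 for erianin replicate 2 against the DMSO mean. Per length, the ratio of TTK to BUB1 in FPKM, the deposited level scaled to length and depth, was 0.401 and 0.896 in erianin, against 0.291 and 0.333 in DMSO. TTK therefore stayed below BUB1 in all 4 libraries and came closest to it in erianin replicate 2.

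**Figure D1:**
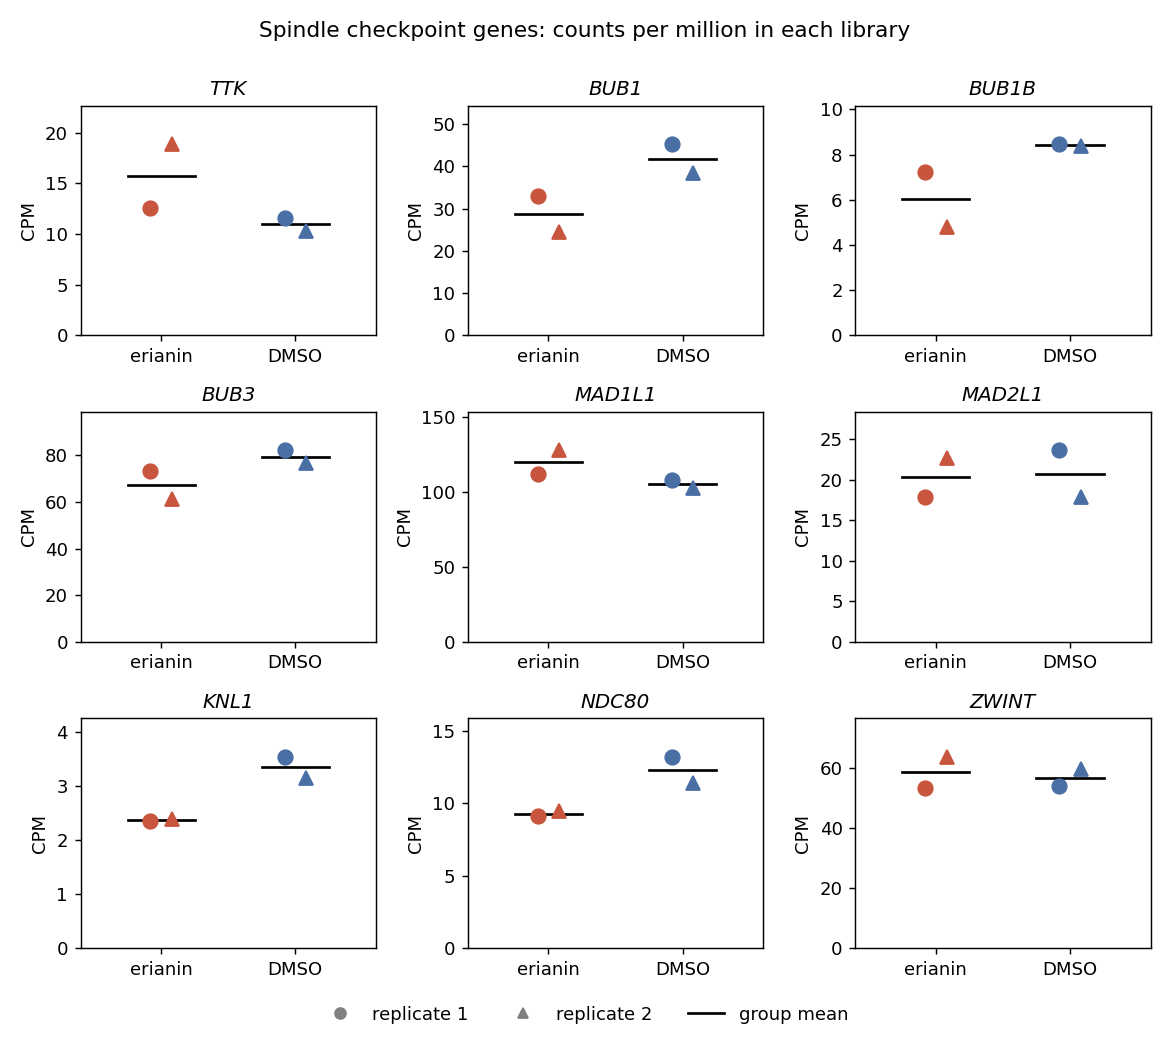
CPM (y axis, from 0 in each panel) of the 9 checkpoint genes in the erianin libraries (left) and the DMSO libraries (right). Circles are replicate 1, triangles replicate 2 and lines group means. TTK and MAD1L1 lie higher in both erianin libraries, BUB1, BUB1B, BUB3, KNL1 and NDC80 lie lower in both, and MAD2L1 and ZWINT overlap.

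Among the genes of the kinetochore platform, KNL1 and NDC80 were lower in both erianin libraries and ZWINT was not. NDC80 (ENSG00000080986, chromosome 18, 2571511 to 2616635, plus strand), the subunit of the outer kinetochore that grips microtubules, had 9.08 and 9.47 CPM in erianin, against 13.2 and 11.4 CPM in DMSO. Its log2 fold change was -0.41 ± 0.17 (SE), and its adjusted p was 0.575 in edgeR's quasi-likelihood test over all genes. KNL1 (ENSG00000137812, chromosome 15, 40594020 to 40664342, plus strand), the scaffold that TTK phosphorylates, had 2.36 and 2.39 CPM in erianin, against 3.55 and 3.16 CPM in DMSO. These rest on only 150 and 133 counts in erianin and 234 and 197 counts in DMSO, and the log2 fold change of -0.50 had a standard error of 0.26 (edgeR, adjusted p = 0.576). For both genes the erianin libraries lay close together, and without erianin replicate 2 NDC80 was at -0.44 and KNL1 at -0.51. With the trend in GC content and length described below removed, the erianin libraries differed more. NDC80 was then at -0.09 without erianin replicate 1 and -0.34 without erianin replicate 2, and KNL1 at 0.02 and -0.34.

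ZWINT (ENSG00000122952, chromosome 10, 56357228 to 56361275, minus strand), which binds KNL1 and helps to recruit the corona, had 53.4 and 63.9 CPM in erianin, against 54.1 and 59.8 CPM in DMSO. The groups overlapped, and the log2 fold change was 0.04 ± 0.13 (SE; edgeR, adjusted p = 0.925). Scaled by library totals only, without TMM factors, it was -0.06. That scaling moved the median over all genes to -0.11, against -0.01 with TMM factors.

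Of the proteins that form or template the inhibitor of the anaphase-promoting complex, BUB1B and BUB3 had lower transcripts in erianin, MAD1L1 had slightly higher ones and MAD2L1 overlapped. BUB1B (ENSG00000156970, chromosome 15, 40161023 to 40221136, plus strand), which encodes BUBR1, had 7.25 and 4.80 CPM in erianin, against 8.47 and 8.37 CPM in DMSO. The DMSO libraries were nearly equal and the erianin libraries were not. The log2 fold change was -0.48 ± 0.23 (SE; edgeR, adjusted p = 0.575), and it was -0.21 without erianin replicate 2.

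BUB3 (ENSG00000154473, chromosome 10, 123154277 to 123170467, plus strand), the adaptor of BUB1 and BUB1B, had 73.2 and 61.1 CPM in erianin, against 82.2 and 76.7 CPM in DMSO, a log2 fold change of -0.24 ± 0.12 (SE; edgeR, adjusted p = 0.575). MAD1L1 (ENSG00000002822, chromosome 7, 1815793 to 2233243, minus strand), which anchors MAD2L1 at the kinetochore, had 112 and 128 CPM in erianin, against 108 and 103 CPM in DMSO, a log2 fold change of 0.19 ± 0.10 (SE; edgeR, adjusted p = 0.578). Their groups did not overlap, and the gap between the nearest libraries was small in each case. MAD2L1 (ENSG00000164109, chromosome 4, 120055608 to 120067074, minus strand), the protein that captures CDC20, had 17.9 and 22.7 CPM in erianin, against 23.6 and 17.8 CPM in DMSO. Its replicates differed within each group by more than the groups did, with a log2 fold change of -0.03 ± 0.19 (SE; edgeR, adjusted p = 0.969).

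In edgeR's test, 0 of the 9 genes passed an adjusted p of 0.05, where 0.041% of all 17090 genes tested did (7 genes). All 9 passed the filter on low counts. DESeq2, limma-voom and limma on FPKM also called 0 of 9. At an unadjusted p under 0.05 there were 3, namely TTK on the higher side and BUB1 and NDC80 on the lower side, against 2.21% of all genes higher and 5.89% lower. These counts hold TTK and BUB1, which were selected on this contrast. Both erianin libraries lay below both DMSO libraries for 5 of 9 and above them for 2 of 9, against 24.4% and 21.7% of all genes. The selected BUB1 and TTK are in these counts too. The other genes in these counts were BUB1B, BUB3, KNL1 and NDC80 on the lower side and MAD1L1 on the higher side. These were chosen for their role, but with earlier results of these data known. The median log2 fold change of the 9 was -0.24, with 6 below 0 and 3 above, while over all genes tested the median was -0.01 and 51.3% lay below 0. Without erianin replicate 1, 5 of the 9 passed (TTK, BUB1, BUB1B, BUB3 and MAD1L1), but so did 17.5% of all genes, and the remaining erianin library was then assumed to vary like the DMSO pair. With the dependence on GC content and length described below also removed, that fit called 1 of 9, TTK, against 3.82% of all genes. Without erianin replicate 2, 0 of 9 passed, and the log2 fold changes were 0.20 for TTK and -0.34 for BUB1. Without DMSO replicate 1, the library with the higher fibroblast markers, they were 0.62 and -0.42, with 0 of 9 passing. With the replicate number as a block, 1 of 9 passed, BUB1, against 1.95% of all genes, but the numbers were not shown to pair the libraries. TTK and BUB1 were selected on this contrast, so their passing in any of the fits above is no test of them.

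Per length, the 9 transcripts covered a wide range of levels, and their order was nearly the same with and without the compound. In erianin, MAD1L1 led at 50.7 and 54.2 FPKM in replicates 1 and 2, followed by BUB3 (31.5 and 23.7), ZWINT (26.7 and 27.7), BUB1 (8.50 and 5.47), TTK (3.41 and 4.90), NDC80 (3.88 and 3.53), MAD2L1 (3.31 and 3.50), BUB1B (1.87 and 1.14) and KNL1 (0.21 and 0.20). In DMSO the order was MAD1L1 (49.3 and 48.2 FPKM), BUB3 (24.5 and 34.3), ZWINT (27.0 and 29.8), BUB1 (11.4 and 9.35), NDC80 (5.83 and 4.93), MAD2L1 (4.20 and 3.21), TTK (3.32 and 3.11), BUB1B (2.17 and 2.02) and KNL1 (0.34 and 0.29). By group mean, TTK stood above NDC80 and MAD2L1 in erianin and below them in DMSO, which shifted the ranks of those 3 genes, but in erianin replicate 1 TTK was below NDC80. The ranges of neighbours overlapped for BUB3 and ZWINT in both groups, for TTK and NDC80 in erianin, and for MAD2L1 and TTK in DMSO, so these neighbours did not differ beyond their spread. The erianin ranges of TTK and MAD2L1 overlapped too, though the genes are not neighbours there.

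Each of the 9 genes has several rows in the deposited tables, 63 in all, with no transcript names. The rows were told apart by the length that count and FPKM imply together. For 7 genes the same row held the most counts in every library, and for BUB1B and BUB3 it did not. BUB1B had one row of 3616 nucleotides implied length with 454 and 50 counts in erianin, against 0 and 0 in DMSO, and another of 3671 nucleotides with 0 and 210 counts in erianin, against 550 and 518 in DMSO. The counts of these near-equal rows traded places between the erianin libraries, so only their sum was used for BUB1B. For BUB3, a row of 7703 nucleotides had 1981 and 1412 counts in erianin, against 3650 and 1893 in DMSO, and a row of 1360 nucleotides had 2516 and 1922 counts, against 1674 and 2805. DMSO replicate 1 was the library whose longer row led.

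The TTK rows also differed between replicates of the same group. The row of 2969 nucleotides held 57.1% and 86.3% of TTK counts in erianin, against 46.2% and 99.5% in DMSO, and in each group replicate 2 was the higher. The row of 3733 nucleotides had 341 and 143 counts in erianin, against 244 and 0 in DMSO, and a row of 3487 nucleotides had counts in DMSO replicate 1 alone (155). BUB1 was simpler, with 1839 and 1290 counts of its row of 3757 nucleotides in erianin, against 2797 and 2311 in DMSO, which was 87.7% to 96.3% of the gene in all libraries. On the log2(FPKM + 0.1) scale, where the rows weigh by length, the fold change was 0.34 for TTK and -0.59 for BUB1. The added 0.1 understates differences of genes near that level, while TTK and BUB1 were at 3.11 FPKM or more in every library. Over all genes the median on this scale was -0.09, against -0.01 in the main edgeR fit. Why the TTK value was smaller on it was not tested.

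Row by row, 29 of the 63 were tested, and edgeR called 0 of them. Over the whole table it called 0 of 48163 rows (0.0%), with 2846 rows and 1 row of the 9 genes, the BUB1B row of 3616 nucleotides, at an unadjusted p under 0.05. MAD2L1 shares 618 nucleotides at 97.7% identity with AL132777.1, which had 4 counts or fewer in every library, and its exons overlap an antisense gene, AC108866.1, with 28 and 18 counts in erianin and 18 and 9 in DMSO. BUB1B shares exon sequence with the read-through gene BUB1B-PAK6, and MAD1L1 has a near copy, AP000344.1. Neither is listed in the tables used here, so reads from these could stand under BUB1B and MAD1L1.

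**Figure D2:**
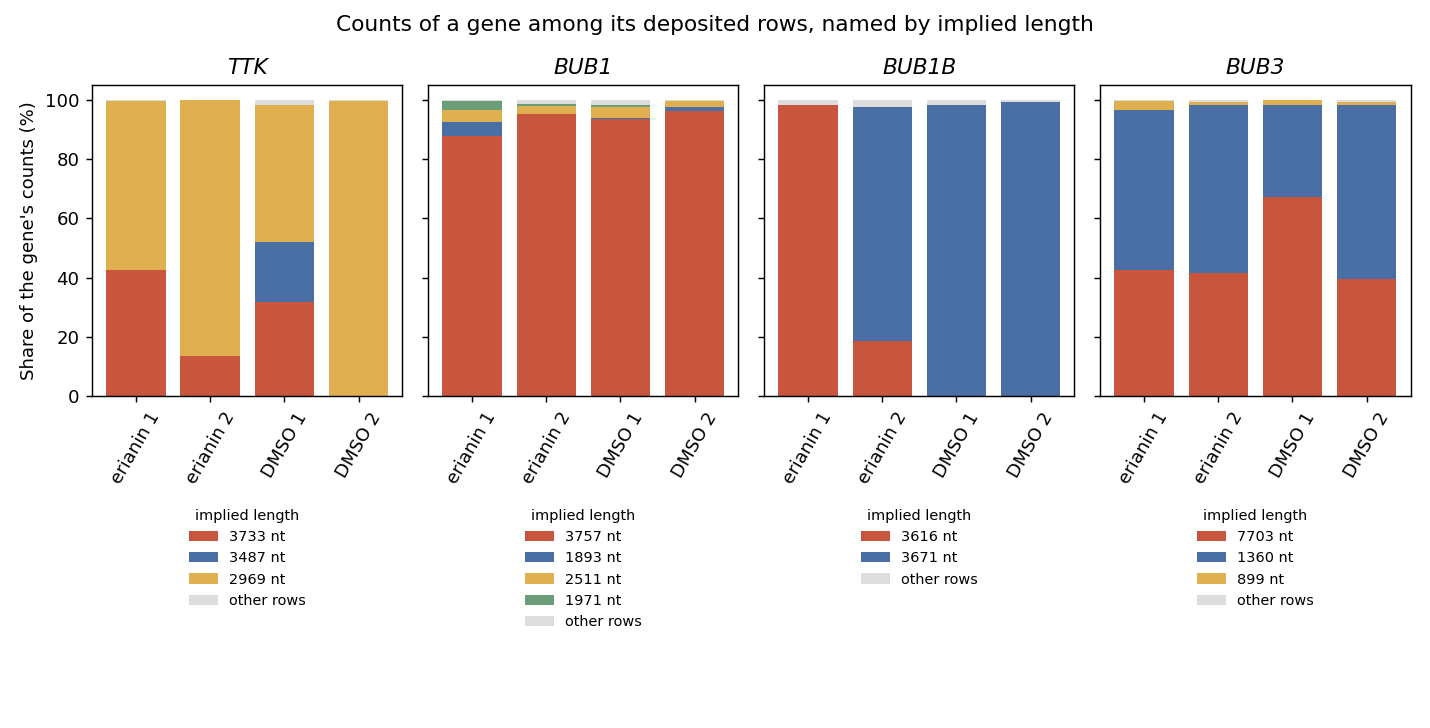
Share of a gene's counts (y axis, percent) held by each deposited row in the 4 libraries, for TTK, BUB1, BUB1B and BUB3. Colours are rows with 100 counts or more summed over the 4 libraries, labelled by implied length in nucleotides. BUB1 sits mostly in its row of 3757 nucleotides throughout, while in erianin replicate 1 nearly all BUB1B counts sit in a row that holds 0 in DMSO.

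Most of the 9 transcripts are poor in GC, and across the transcriptome the log2 fold change of erianin over DMSO followed GC content, by 0.18 per 10 percentage points over 7968 genes (Spearman's rho over genes 0.665, where genes are no independent replicates). Against the DMSO mean the slopes of erianin replicates 1 and 2 were 0.09 and 0.28, and DMSO replicate 2 over DMSO replicate 1 gave 0.04. TTK, at 40.8% GC, lay on the other side of zero from its neighbours in GC. The 545 other genes within 1 percentage point had a median log2 fold change of -0.27, and their lower and upper deciles were -0.54 and 0.06, against 0.53 for TTK. BUB1, at 42.5%, had -0.55 where the 541 genes of like GC had a median of -0.23 and a lower decile of -0.52. TTK and BUB1 were selected on this contrast, so their places among genes of like GC are descriptions and no finding. BUB3 (-0.24 against a median of -0.27) and MAD1L1, the one GC-rich gene of the set at 62.6% (0.19 against a median of 0.17), sat at the level of their neighbours.

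**Figure D3:**
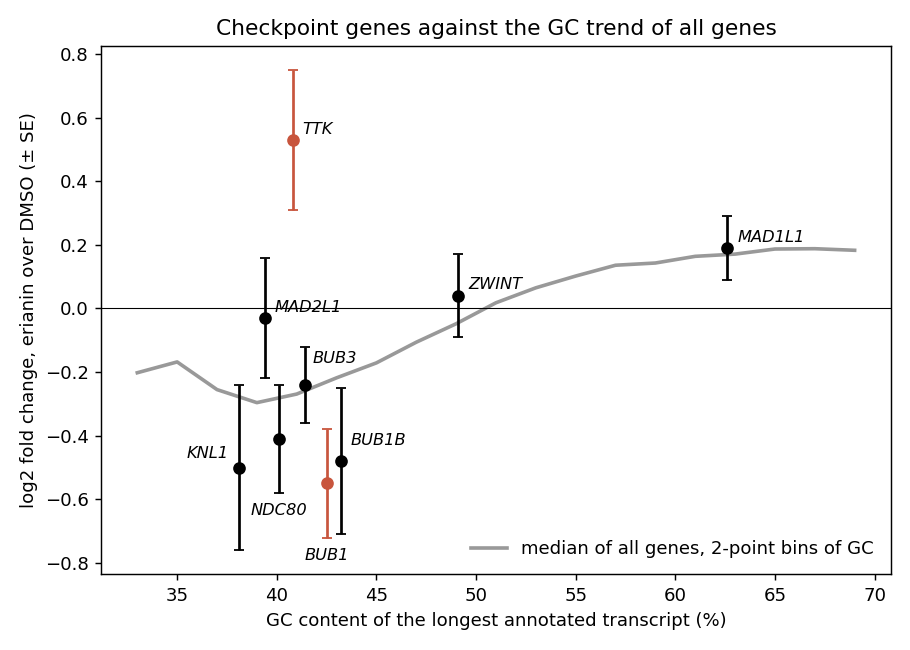
Log2 fold change of erianin over DMSO (y axis, ± SE) against the GC content of the longest annotated transcript (x axis, percent). Points are the 9 checkpoint genes, with TTK and BUB1 in red, and the grey line is the median over all genes above the expression minimum. TTK stands above the line, BUB3 and MAD1L1 lie on it, and BUB1, BUB1B, KNL1 and NDC80 lie below it. TTK and BUB1 were selected on this fold change.

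After the dependence on GC content and transcript length was removed from each library, TTK had a log2 fold change of 0.80 ± 0.26 and BUB1 one of -0.33 ± 0.11 (SE). NDC80 was at -0.21, BUB1B at -0.28 and KNL1 at -0.15, each closer to 0 than before. BUB3 moved to 0.08, MAD2L1 to 0.29 and MAD1L1 to 0.02, and ZWINT was at 0.05. The count below 0 was then 4 of 9 in place of 6, and their median was 0.02. The edgeR test with the trend removed called 0 of 9, against 0.0293% of all genes. At an unadjusted p under 0.05 there were 2, against 6.48% of all genes, and these were TTK and BUB1, which were selected on this contrast. The size of the TTK value depended on the erianin library. With the trend removed, TTK was at 1.17 without erianin replicate 1 and at 0.32 without erianin replicate 2. BUB1 was at -0.42 and -0.24 in the same fits.

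**Figure D4:**
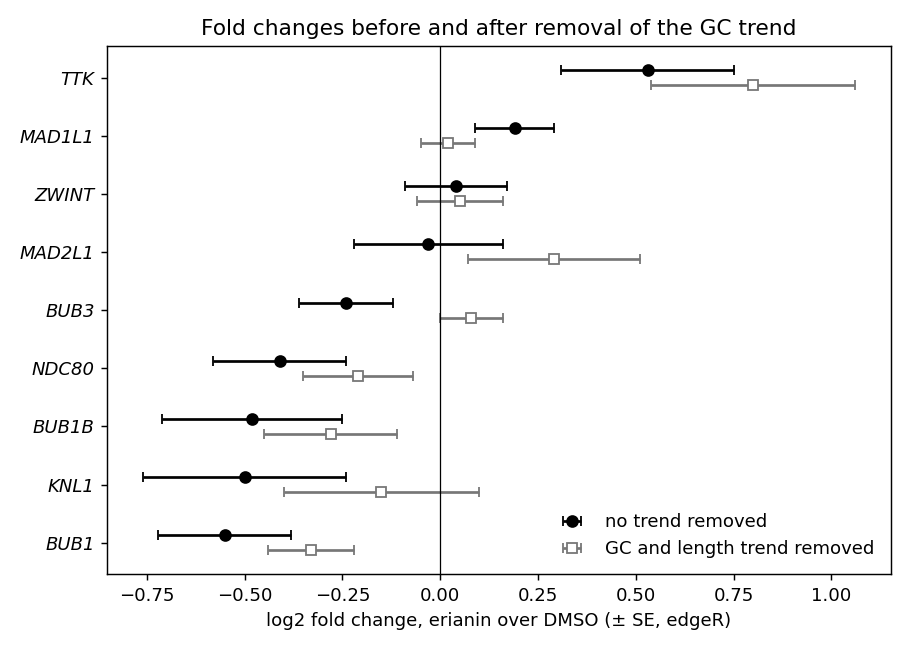
Log2 fold changes of erianin over DMSO (x axis, ± SE) of the 9 genes, without removal of any trend (filled circles) and with the GC and length trend removed (open squares). TTK moves from 0.53 to 0.80, BUB1 from -0.55 to -0.33, and BUB3 and MAD2L1 cross 0.

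The wider pathway was described with 9 lists of partners, chosen with earlier results of these data known. They hold 72 genes in all, of which SGO1 stands in 2 lists. Of these, 0 passed edgeR's test (0.041% of all genes did), also with DESeq2 and limma-voom, and 11 were lower and 1 higher at an unadjusted p under 0.05, against 5.89% and 2.21% of all genes. Their median log2 fold change was -0.14, with 47 of 72 below 0 (65.3%, against 51.3% of all genes), and with the trend in GC and length removed it was -0.06, with 45 of 72 below 0. Without erianin replicate 1, 26 of the 72 passed, against 17.5% of all genes, and 21 of them were lower in erianin, against 10.2% of all genes. With that library left out and the trend removed, 3 of 72 passed, against 3.82% of all genes. With the replicate number as a block, 2 of 72 passed, TPR and TOP2A, both lower in erianin, against 1.95% of all genes. With the block and the trend removed, 0 of 72 did. The numbers were not shown to pair the libraries. The examples below are the partners with the smallest p in their list.

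The corona, the fibrous outermost layer that carries the RZZ complex and motors, had the lowest median of the lists with all libraries, -0.56, with 6 of 6 below 0 and a median GC content of 40.2%. CENPF, a corona and nuclear matrix protein, had 17.3 and 12.7 CPM in erianin, against 21.3 and 23.2 CPM in DMSO. ZW10, an RZZ subunit, had 7.35 and 4.88 CPM in erianin, against 8.89 and 9.01 CPM in DMSO, and KNTC1, which encodes the RZZ subunit ROD, had 2.36 and 3.60 CPM, against 4.76 and 4.26 CPM. For these 3 genes both erianin libraries were the lower ones, with log2 fold changes of -0.57 ± 0.19, -0.55 ± 0.23 and -0.60 ± 0.28 (SE). With the trend in GC and length removed the list's median was -0.24, with 5 of 6 below 0. Without erianin replicate 1 it was -0.85, and without erianin replicate 2 it was -0.24, when the proliferation list was lower at -0.27.

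In the outer kinetochore list, 8 of 10 lay below 0, with a median of -0.24. With the trend removed it was 5 of 10 and -0.06, and without erianin replicate 2 the median was -0.05. DSN1, of the MIS12 complex, was at -0.52 ± 0.25, SPC24, a partner of NDC80 whose groups overlapped, at -0.44 ± 0.27, and SKA1, which couples NDC80 to microtubules, at -0.66 ± 0.41 (SE). Without erianin replicate 2, DSN1 was at -0.21, SPC24 at -0.07 and SKA1 at -0.17. NUF2, the direct dimer partner of NDC80, was at 0.05 ± 0.18 (SE), so NDC80 and NUF2 had values on different sides of 0, a difference that was not tested (NUF2 was named after its value had been seen). Of the chromosomal passenger complex and shugoshins, 6 of 7 lay below 0 at a median of -0.11, among them SGO2 at -0.32 ± 0.26 and CDCA8 at -0.14 ± 0.11, while the kinase AURKB was at 0.12 ± 0.10 (SE).

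The checkpoint acts on the anaphase-promoting complex and so on its substrates. For the anaphase-promoting complex the median was 0.00 and 8 of 17 lay below 0, with the subunits CDC16 at -0.61 ± 0.19 and CDC27 at -0.50 ± 0.16 and the activator FZR1 at 0.28 ± 0.10 (SE). Its substrates and separase had a median of -0.11, or -0.02 without DMSO replicate 1 and -0.29 without DMSO replicate 2, with CCNB1, cyclin B1, at 118 and 100.2 CPM in erianin, against 134 and 118 CPM in DMSO, CCNB2 at -0.20 ± 0.14 and GMNN at -0.26 ± 0.17 (SE). In the list of checkpoint effector and silencing genes, TPR, a nuclear pore protein that holds MAD1L1 in interphase, had 14.8 and 9.30 CPM in erianin, against 21.1 and 19.0 CPM in DMSO, a log2 fold change of -0.73 ± 0.22 (SE). The phosphatase genes PPP1CC and PPP2R5A were at -0.39 ± 0.16 and -0.34 ± 0.17 (SE), and that list had 5 of 7 below 0 and a median of -0.21, or -0.42 without erianin replicate 1 and -0.03 without erianin replicate 2. With the trend in GC and length removed, TPR was at -0.42, PPP1CC at -0.22 and PPP2R5A at -0.23. In the same fit CDC16 was at -0.50, CDC27 at -0.23 and FZR1 at 0.17.

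Mitotic kinases had 3 of 6 below 0 and a median of -0.09, with WEE1, the inhibitor of CDK1, at -0.65 ± 0.20, AURKA at -0.25 ± 0.15 and PKMYT1 at 0.19 ± 0.12 (SE). With the trend in GC and length removed, WEE1 was at -0.39, AURKA at -0.16 and PKMYT1 at -0.01. AURKA was at -0.50 without erianin replicate 1 and at -0.04 without erianin replicate 2. Cell cycle transcription factors had 2 of 8 below 0, a median of 0.11 and a median GC content of 57.3%, and with the trend removed 4 of 8 lay below 0 and the median was -0.02. FOXM1 was at 0.11 ± 0.09, LIN37 at 0.26 ± 0.18 and LIN54 at -0.50 ± 0.27 (SE). Proliferation genes had 4 of 5 below 0 and a median of -0.40, or -0.22 with the trend removed. MKI67, the Ki-67 gene, had 34.8 and 29.1 CPM in erianin, against 39.7 and 44.6 CPM in DMSO, and TOP2A had 30.4 and 24.7 CPM, against 42.0 and 36.4 CPM. MCM6, a replication helicase subunit, was at -0.57 ± 0.15 (SE). BUB1 sat among the lower values of its pathway, and TTK had a higher log2 fold change than each of the 72 partners, the highest of which was 0.37. Both genes were selected on this contrast, so their places among the partners are descriptions and no finding of the comparison.

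**Figure D5:**
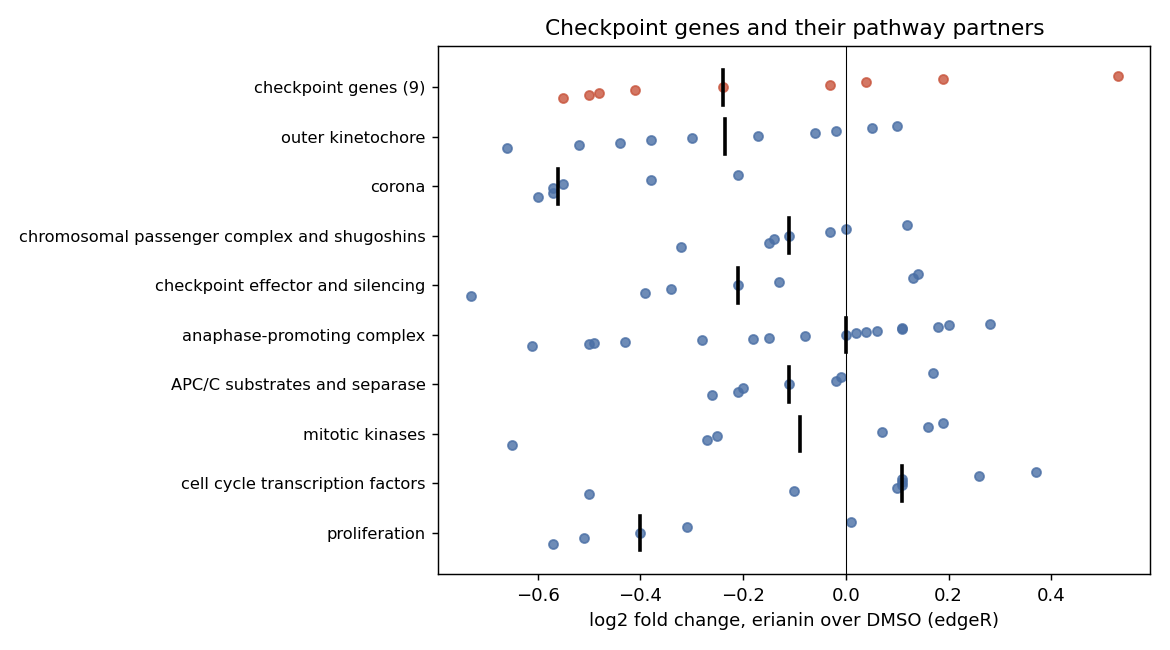
Log2 fold change of erianin over DMSO (x axis) of the 9 checkpoint genes (red) and of 9 lists of partner genes (blue), with the median of each list as a black bar. The corona genes all lie below 0, and TTK, which was selected on this fold change, lies to the right of every partner gene.

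Over the 4 libraries, the protein-coding genes with centred log2 CPM nearest to those of BUB1, among 7670 candidates, were NIPBL, TRIP12 and TRAK2, at distances of 0.034, 0.042 and 0.044 log2 units. Those nearest to TTK were LBHD1, SLC26A1 and GCHFR, at 0.126, 0.159 and 0.161. BUB1's neighbours had GC contents from 39.5% to 42.0%, near its own, and TTK's had GC contents from 51.3% to 66.9%, above its own. With 4 libraries many genes can share such a pattern.

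Promoters were examined for elements known from genes of late cell cycle, since several of the 9 lay lower in both erianin libraries. The selected BUB1 is among those, and with the trend in GC and length removed 4 of 9 were below 0, at a median of 0.02. RefSeq promoter windows on GRCh38.p14 were matched for 6 of the 9 genes. The CHR element (TTTGAA) and the CCAAT box (CCAAT), whose matches did not overlap in these windows, were searched on both strands in the 250 bases before each start. CHR letters were found for BUB1B and ZWINT, 2 of 6, against 13.3% of all promoters, and CCAAT for BUB1, MAD2L1 and ZWINT, 3 of 6, against 32% of all promoters. Of the 250 bases, annotated exons covered 250 for MAD1L1, 249 for NDC80 and 226 for MAD2L1, so these windows are largely transcribed sequence. The CCAAT match of MAD2L1, 229 bases before the start, runs into an annotated exon. For BUB1B exons covered 46 bases, and its CHR letters, 23 bases before the start, lie within an annotated exon. The RefSeq start of NDC80 was not found in an annotated transcript. Among the 64 partner genes with a window, 23.4% held CHR letters and 59.4% held CCAAT. BUB1, with lower values in erianin, and ZWINT, whose groups overlapped, are printed for contrast, from the start of the window up to the base before the nearest annotated exon, with matches on either strand in capitals.
BUB1 (chr2:110678115-110678313, minus strand): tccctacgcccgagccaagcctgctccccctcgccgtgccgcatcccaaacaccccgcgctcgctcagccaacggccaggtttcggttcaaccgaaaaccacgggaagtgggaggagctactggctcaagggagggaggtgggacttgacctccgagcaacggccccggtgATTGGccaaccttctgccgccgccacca
ZWINT (chr10:56361276-56361509, minus strand): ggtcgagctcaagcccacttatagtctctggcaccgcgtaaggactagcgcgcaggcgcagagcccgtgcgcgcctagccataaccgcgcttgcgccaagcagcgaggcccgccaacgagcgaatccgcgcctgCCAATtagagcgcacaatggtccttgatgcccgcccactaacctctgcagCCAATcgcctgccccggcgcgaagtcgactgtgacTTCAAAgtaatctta
In the BUB1 stretch the CCAAT match stands 79 bases before the RefSeq start, on the opposite strand, and another match, 54 bases before it, straddles the edge of an annotated exon, so that its first 3 bases end the printed stretch in lower case. In the ZWINT stretch CCAAT stands 116 and 66 bases before the start, and the CHR letters 31 bases before it, on the opposite strand. A match to these letters is not a shown binding site.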

How the data were processed

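RNA sequencing of 4 SW1990 libraries (2 erianin, 2 DMSO) was analysed from the deposited tables, with groups and replicate numbers taken from the sample titles. The authors deposited unnormalized whole-number estimated counts in 107429 rows for 25798 gene IDs. The FPKM values were deposited by the authors for the same rows. The submitters' processing notes list GRCh38, featureCounts 2.0.1, StringTie 2.2.1, STAR and fastp without saying which step each served. Annotation and strand setting: not given in the sources used here. Rows look like reads apportioned between transcripts, so they were summed per gene ID, and the plan's plain counts per gene were read as estimated counts.

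edgeR 4.0.16 (R 4.3.3) fitted group only over all genes, with TMM factors, filterByExpr at a minimum count of 10 (17090 genes kept), the quasi-likelihood F test and Benjamini-Hochberg adjustment at 0.05, with 2 residual degrees of freedom. Standard errors were derived as log2 fold change over the root of F. CPM uses TMM-adjusted library sizes. Fits on rows, DESeq2 1.42.0, limma 3.58.1 (voom, and log2(FPKM + 0.1) or log2(FPKM + 1)) and simulated data with known changes were run the same way. The GC and length trend was fitted per library by natural splines with df 5, using genes whose mean log2 CPM reached 3, and used as an offset. Implied length is count over FPKM and a library total calibrated on genes with 1 row and 1 transcript. Symbols were looked up by gene ID, positions came from GENCODE release 29 on GRCh38 (1-based), near copies from BLAST+ 2.17.0. Partner genes named are up to 3 per list with the smallest p and a mean log2 CPM from 1 upwards. The genes and lists were chosen with earlier results of these data known.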

Additional observations from a re-analysis of the deposited data

How the results depend on the processing

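Precision is limited by 2 libraries per group. The 7 genes past the threshold over the whole table became 2 with library totals alone, 21 with the DESeq2 Wald test, 0 with limma-voom, 24 to 3166 when 1 library was left out, and 692, 25, 12 and 37 without erianin replicates 1 and 2 and DMSO replicates 1 and 2 when the trend in GC content and length was also removed (an alternative chosen after seeing the data). With the replicate number as a block, 334 genes passed (1.95%), BUB1 among them (edgeR, log2 fold change -0.56), and 14 did with the GC and length offset as well, with 0 of 9. Same-numbered libraries deviated together with a correlation of 0.222 across genes, from 2 pairs only, so the numbers were not taken to pair the libraries. TTK stayed above 0 and BUB1, BUB1B and NDC80 below 0 in all 21 alternatives, from 0.20 to 1.17, from -0.79 to -0.24, from -0.82 to -0.12 and from -0.52 to -0.09. The other 5 had both signs, and the cause was not tested. All alternatives reuse the same 4 libraries or some of them, and TTK and BUB1 were selected on this contrast. BUB3 was at 0.08 with the offset, with or without the block, and at 0.12, 0.03, 0.08 and 0.06 with the offset when 1 library was left out. MAD2L1 was at 0.29 with the offset, 0.27 with the block as well, from -0.22 to 0.19 when 1 library was left out and at 0.59, -0.07, 0.46 and 0.14 when the offset was added (same order of libraries). ZWINT was at -0.06 with library totals and with FPKM, from -0.09 to 0.16 when 1 library was left out and -0.09, -0.02 and up to 0.17 with the offset. MAD1L1 reached -0.02 and KNL1 0.02 in fits with the offset and 1 library left out. Among partners, AURKB was at -0.05 and PKMYT1 at -0.01 with the offset, with or without the block, and with 1 library left out as well AURKB reached -0.11, -0.06 and -0.04, PKMYT1 -0.07 and -0.06, KNTC1 0.16, CCNB1 0.01, CCNB2 0.02 and LIN37 -0.02.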
